A study of Mus musculus with 16 samples.

Results

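*Spp1*, which encodes osteopontin, was followed together with 7 genes that accompany it in scar-associated lung macrophages: *Trem2*, *Gpnmb*, *Lgals3*, *Fabp5*, *Cd63*, *Cd9* and *Mmp12*. They were 8 of 49452 genes in the files, taken by symbol. They were chosen by their FPKM in these same mice, with the contrasts between groups known, so their levels are a description. RNA was sequenced from tdTomato-positive cells sorted from the left lung of 16 mice, in 4 groups of 4. *Acta2-tdT* mice (Acta2-CreERT2; tdTomatoflox) received tamoxifen in food at 400 mg/kg from day 5 after the agent, and *Pdgfra-tdT* mice (Pdgfra-CreERT2; tdTomatoflox) received 5 injections of 3 mg tamoxifen at 6 weeks of age. Each line was given saline or bleomycin, the agent of the standard model of lung fibrosis, and was sampled at day 14 at 11 weeks of age. In both lines the reporter marks cells in which the named promoter drove Cre during tamoxifen, so the lines differ in promoter and in the time and route of labelling, and these cannot be told apart.

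Osteopontin is a secreted phosphoprotein of the matrix that binds integrins and CD44. Macrophages that gather in scarred lung express it with TREM2, a lipid-sensing receptor that signals through TYROBP, and with genes of lipid handling and the lysosome. Fibroblasts and smooth muscle cells can also express *Spp1*, and several of the other genes are broadly expressed.

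The promoters are shown for the members in whose promoter an AP-1 or PU.1 motif was found, since both factor families act in macrophages. The RefSeq table (GRCm38.p6) held 9 promoters of 300 bases, from 250 before to 50 after a start site, for 7 of the 8 members. *Fabp5* had no entry. A second start of *Spp1* (chr5:104435942-104436241) held none of the motifs and is not printed. Motifs were searched on both strands. Capitals mark any of the 5 motifs searched, which are spelled out after the sequences and did not overlap each other here.
Spp1, chr5:104434861-104435160, plus strand: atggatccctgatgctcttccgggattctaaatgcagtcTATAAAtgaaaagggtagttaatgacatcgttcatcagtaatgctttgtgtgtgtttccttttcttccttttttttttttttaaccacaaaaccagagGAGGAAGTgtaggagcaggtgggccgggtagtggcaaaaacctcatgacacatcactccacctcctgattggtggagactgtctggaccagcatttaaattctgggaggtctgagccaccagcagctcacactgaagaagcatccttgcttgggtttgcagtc
Trem2, chr17:48346151-48346450, plus strand: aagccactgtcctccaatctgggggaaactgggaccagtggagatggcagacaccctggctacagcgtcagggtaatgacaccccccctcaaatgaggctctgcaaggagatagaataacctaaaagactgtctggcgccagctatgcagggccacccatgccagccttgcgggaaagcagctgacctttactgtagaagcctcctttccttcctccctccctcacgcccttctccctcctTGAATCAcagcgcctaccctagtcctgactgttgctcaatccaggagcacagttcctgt
Gpnmb, chr6:49036268-49036567, plus strand: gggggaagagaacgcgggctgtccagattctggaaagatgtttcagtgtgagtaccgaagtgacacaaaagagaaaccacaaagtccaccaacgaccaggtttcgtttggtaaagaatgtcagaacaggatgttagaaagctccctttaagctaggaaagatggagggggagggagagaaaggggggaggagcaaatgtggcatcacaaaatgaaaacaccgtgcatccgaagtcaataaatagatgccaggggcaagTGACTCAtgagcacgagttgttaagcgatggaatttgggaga
Mmp12, chr9:7344147-7344446, plus strand: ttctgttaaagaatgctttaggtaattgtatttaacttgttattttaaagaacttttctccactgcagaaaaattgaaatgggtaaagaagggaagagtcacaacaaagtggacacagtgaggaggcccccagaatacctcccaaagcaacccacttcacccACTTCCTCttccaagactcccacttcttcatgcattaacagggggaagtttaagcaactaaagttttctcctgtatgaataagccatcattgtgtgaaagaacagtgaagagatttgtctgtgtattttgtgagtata
Mmp12 second start, chr9:7347124-7347423, plus strand: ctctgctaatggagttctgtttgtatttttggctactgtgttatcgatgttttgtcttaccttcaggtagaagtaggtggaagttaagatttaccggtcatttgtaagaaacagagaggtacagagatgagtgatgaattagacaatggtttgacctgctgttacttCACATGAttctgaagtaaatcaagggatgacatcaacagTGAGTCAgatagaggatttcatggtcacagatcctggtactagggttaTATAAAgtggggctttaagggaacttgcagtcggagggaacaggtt

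The AP-1 letters, TGANTCA, stood in promoters of 3 members (*Trem2*, *Gpnmb* and *Mmp12*), and in 7.81% of 32851 promoters of this length. The letters taken for PU.1 were GAGGAAGT and stood in promoters of 2 members (*Spp1*, starting 113 bases before the start site, and *Mmp12*, 88 before), and in 3.20% of all. TATAAA was found for 2 members (13.6% of all promoters), and the M-box, spelled TCATGTG, for 1 (3.77% of all). The E-box with the letters CACGTG was found for 0 members (7.15% of all). A match describes letters only.

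The protein-coding FPKM sum (median per group) was 376953 in *Acta2-tdT* bleomycin, 42700 in *Acta2-tdT* saline, 46107 in *Pdgfra-tdT* bleomycin and 33069 in *Pdgfra-tdT* saline. These totals were not made equal in the deposited values, so comparisons of the members are also given after scaling to an equal sum. Scaling moved the median difference over all genes from 1.76 to -0.02 (log2) for bleomycin against saline in *Acta2-tdT* cells, and from 0.02 to -0.29 in *Pdgfra-tdT* cells. Inferred fragments on genes, which are approximate, ran from 599424 to 8323505 a mouse. *Acta2*, the promoter gene of the first line, was at 139 to 314 FPKM in *Acta2-tdT* saline mice and 1229 to 3211 in bleomycin mice, against 2.59 to 11.0 and 0.831 to 19.4 in *Pdgfra-tdT* mice. *Pdgfra* was low throughout: 2.14 to 3.82 FPKM in *Pdgfra-tdT* saline mice, 0.977 to 2.45 in *Pdgfra-tdT* bleomycin mice, 0.273 to 0.562 in *Acta2-tdT* saline mice and 2.49 to 11.9 in *Acta2-tdT* bleomycin mice. Scaled, *Pdgfra* was at 4.40 to 7.50 in *Pdgfra-tdT* saline mice and 1.32 to 3.53 in *Pdgfra-tdT* bleomycin mice, against 0.488 to 1.18 and 0.801 to 1.91 in *Acta2-tdT* mice. After bleomycin it was therefore higher in every *Acta2-tdT* mouse than in every *Pdgfra-tdT* mouse as deposited, while the scaled ranges overlapped.

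*Spp1* (ENSMUSG00000029304, chr5:104435118-104441050, GRCm38) was at 12.4, 14.6, 11.8 and 14.6 FPKM in the *Acta2-tdT* saline mice. It reached 7230, 3155, 8544 and 9932 FPKM in the *Acta2-tdT* bleomycin mice. The 2 sets did not overlap, and the mean was 541 times higher after bleomycin as deposited and 62.4 times higher after scaling. Among 21950 nuclear protein-coding genes *Spp1* ranked 224th to 499th in the *Acta2-tdT* saline mice and 2nd to 5th in the *Acta2-tdT* bleomycin mice. In *Pdgfra-tdT* saline mice *Spp1* was at 4.60, 30.6, 25.5 and 53.7 FPKM. It was at 1061, 541, 1396 and 73.5 FPKM in *Pdgfra-tdT* bleomycin mice, where mouse 8 lay far below the other 3 but above every saline mouse (no overlap after scaling either). The ratio of means was 26.8 as deposited and 17.5 after scaling, and *Spp1* ranked 3rd to 18th there. Its share of the protein-coding FPKM was 1.37% to 2.27% in *Acta2-tdT* bleomycin mice and 0.258% to 3.28% in *Pdgfra-tdT* bleomycin mice, ranges that overlapped.

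**Figure D1:**
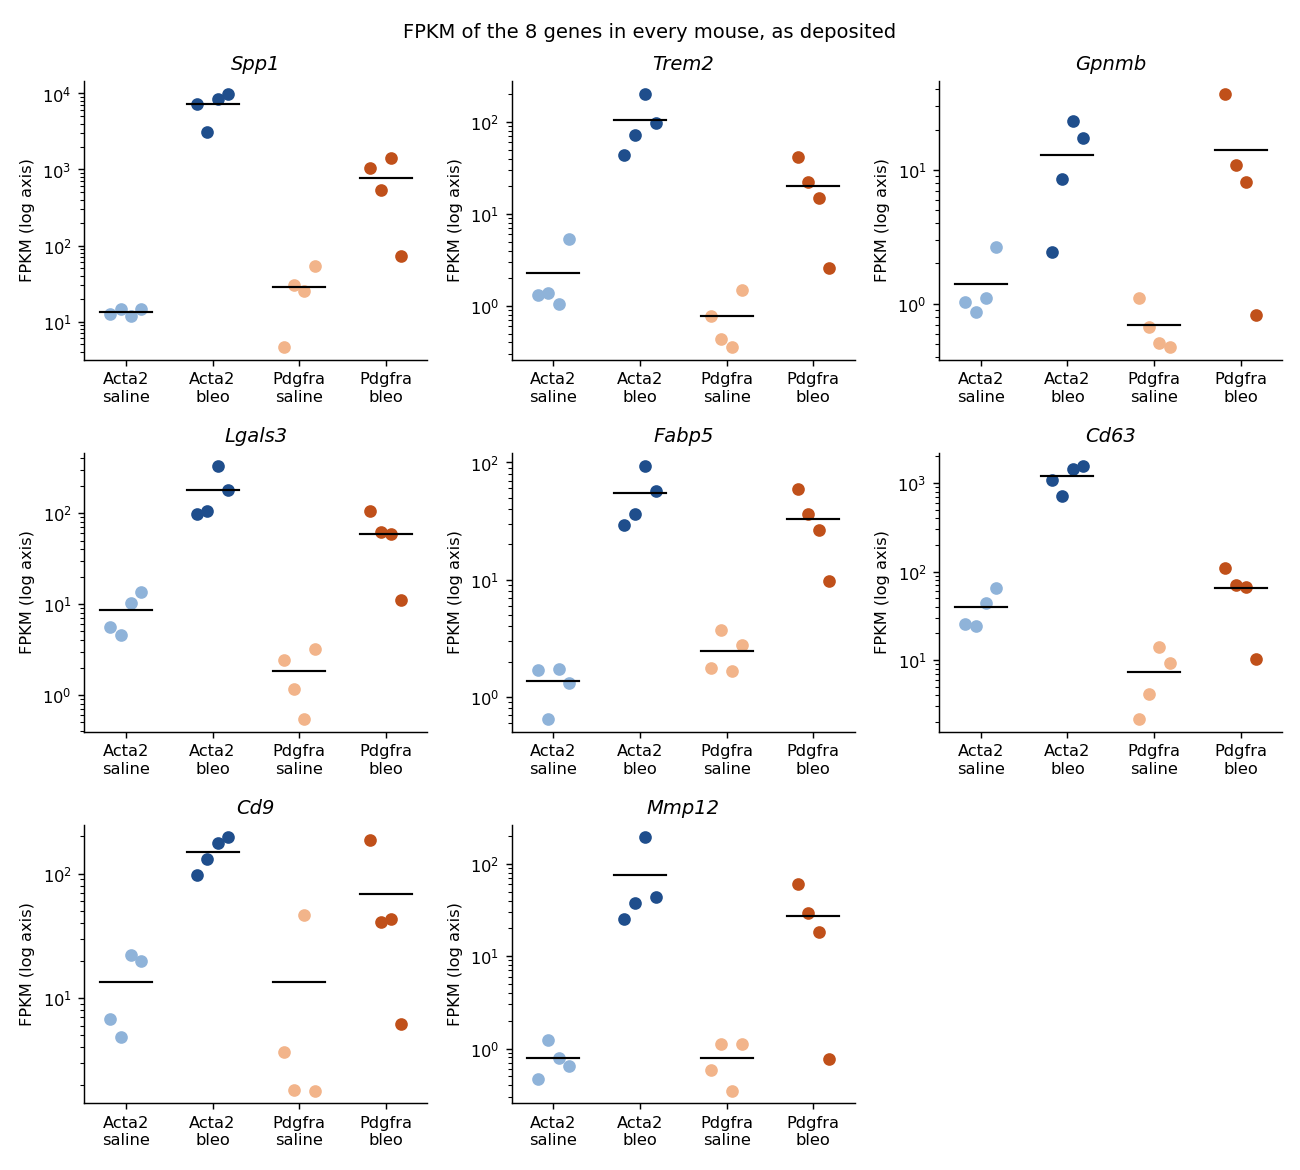
FPKM as deposited (log axis) of the 8 genes in each of 16 mice, in 4 groups; points are mice and lines are group means. *Spp1* sat between 3155 and 9932 in *Acta2-tdT* bleomycin mice, and mouse 8, the right-hand point of the *Pdgfra-tdT* bleomycin group, lay lowest in that group for every gene.

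*Trem2*, the lipid receptor, was at 1.32, 1.39, 1.05 and 5.39 FPKM in *Acta2-tdT* saline mice and at 43.6, 72.8, 203 and 97.4 FPKM after bleomycin. The saline *Pdgfra-tdT* mice had 0.784, 0.442, 0.356 and 1.51 FPKM, and the 4 given bleomycin 41.7, 22.3, 14.9 and 2.57. The saline and bleomycin mice did not overlap in either line, and the scaled values did not overlap either. The gene lies at chr17:48346401-48352273 (GRCm38, as are the coordinates of the other members).

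*Gpnmb* (chr6:49036615-49070929), a transmembrane glycoprotein of lysosome-rich macrophages, was at 1.03, 0.863, 1.11 and 2.65 FPKM in *Acta2-tdT* saline mice and at 2.45, 8.52, 23.1 and 17.4 after bleomycin. After scaling the bleomycin mice ran from 0.574 to 3.95 and the saline mice from 1.70 to 3.41, so the ranges overlapped. In the *Pdgfra-tdT* line, saline mice had 1.11, 0.676, 0.512 and 0.475 FPKM, and the 4 given bleomycin 37.0, 10.8, 8.07 and 0.831. The scaled values of the bleomycin mice were 20.0, 16.2, 14.1 and 2.17, of which 3 lay above all saline mice.

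*Lgals3* (chr14:47373813-47386160) encodes galectin 3, a carbohydrate-binding protein of macrophages and other cells. It was at 5.60, 4.60, 10.3 and 13.6 FPKM in *Acta2-tdT* saline mice and at 97.5, 104, 334 and 178 after bleomycin. Values in *Pdgfra-tdT* saline mice were 2.44, 1.17, 0.544 and 3.22 FPKM, and those of the 4 given bleomycin were 105, 61.7, 59.2 and 11.0. Neither line overlapped between agents, on either scale. *Fabp5* (chr3:10012548-10016607), a fatty acid binding protein, was at 1.71, 0.648, 1.74 and 1.31 FPKM in *Acta2-tdT* saline mice and at 29.4, 36.6, 94.2 and 57.2 after bleomycin. With saline, *Pdgfra-tdT* mice had 1.76, 3.68, 1.65 and 2.77 FPKM, and the 4 given bleomycin 59.2, 36.3, 26.6 and 9.71. Its groups did not overlap in either line, on either scale.

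*Cd63* (chr10:128908919-128912816), a tetraspanin of late endosomes, was at 25.7, 24.5, 44.3 and 66.0 FPKM in *Acta2-tdT* saline mice and at 1074, 710, 1431 and 1579 after bleomycin. Its scaled level in those bleomycin mice was 229 to 254, the narrowest of the 8 genes relative to its mean (244 ± 11.3, SD, n = 4). The saline *Pdgfra-tdT* mice had 2.16, 4.13, 14.0 and 9.38 FPKM, and the 4 given bleomycin 111, 70.4, 66.4 and 10.2. As deposited the bleomycin value of mouse 8 lay within that saline range, while scaled it was 26.5 against 5.37 to 19.4 with saline, so all 4 bleomycin mice lay above. *Cd63* was the 1 member whose scaled level was higher in every *Acta2-tdT* bleomycin mouse than in every *Pdgfra-tdT* bleomycin mouse (18.9% of tested genes were). *Cd9* (chr6:125460266-125494791), another tetraspanin, was at 6.76, 4.83, 22.0 and 19.8 FPKM in *Acta2-tdT* saline mice and at 98.0, 132, 176 and 196 after bleomycin. Scaled, these became 10.1 to 33.8 and 22.9 to 42.4, which overlapped. In the *Pdgfra-tdT* line, saline mice had 3.65, 1.81, 46.2 and 1.80 FPKM, and the 4 given bleomycin 186, 40.9, 42.9 and 6.18, and saline mouse 3 lay within the bleomycin range. Scaled, that mouse had 57.4 and the bleomycin mice 16.1 to 100, of which 3 lay above it. Summed endothelial markers were 333 FPKM in that saline mouse, against 3.79 to 9.69 in the other *Pdgfra-tdT* saline mice. In the *Pdgfra-tdT* bleomycin mice the endothelial sum was 875, 89.8, 26.6 and 3.83 FPKM (472, 134, 46.6 and 9.99 scaled), highest in mouse 5, which also had the highest *Cd9*, and lowest in mouse 8, which had the lowest. The part of these markers in the *Cd9* values was not tested.

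*Mmp12* (chr9:7344397-7369499), macrophage elastase, was at 0.467, 1.23, 0.784 and 0.653 FPKM in *Acta2-tdT* saline mice and at 25.5, 37.2, 194 and 44.3 after bleomycin. Values in *Pdgfra-tdT* saline mice were 0.582, 1.11, 0.349 and 1.11 FPKM, and those of the 4 given bleomycin were 61.0, 29.4, 18.4 and 0.779. Bleomycin mouse 8 lay within the saline range, also after scaling (2.03 against 0.434 to 2.74), and the other 3 lay above it on both scales. In *Acta2-tdT* mice the scaled values were 0.841 to 2.57 with saline and 5.95 to 33.1 after bleomycin, without overlap.

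For bleomycin against saline in *Acta2-tdT* cells, the log2 difference was 8.86 (SE 0.43) for *Spp1*, and those of the other tested members ran from 2.24 (*Gpnmb*) to 4.96 (*Mmp12*). After scaling the *Spp1* difference was 5.91 (SE 0.31), *Gpnmb* had 0.03 (SE 0.35) and *Cd9* 0.70 (SE 0.40). As deposited 8 of 8 tested members passed the threshold upwards (limma) where 70.4% of 12523 genes did. After scaling 6 of 8 did, where 23.9% of genes did. Of the 8 tested members 7 had no overlap between agents as deposited (67.8% of tested genes were higher in every bleomycin mouse), and 6 had none after scaling (21.5% of genes). The members were picked with this contrast known, so nothing is read from those counts. Housekeeping genes passed upwards for 8 of 8 as deposited and 5 of 8 after scaling (list median 3.98 and 1.03). Their summed scaled level was 480 to 652 in *Acta2-tdT* saline mice and 1338 to 1675 in *Acta2-tdT* bleomycin mice, without overlap. The scaled ratio of means was 2.62 for *Lgals3* and 3.82 for *Cd63*, and the part of the housekeeping shift in these values was not tested.

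In *Pdgfra-tdT* cells the log2 differences ran from 2.47 (*Gpnmb*, SE 0.83) to 4.46 (*Spp1*, SE 1.08) as deposited and from 2.26 (*Gpnmb*, SE 0.70) to 3.98 (*Spp1*, SE 1.09) after scaling. By limma 0 of 8 tested members passed the adjusted threshold, as did 0.124% of 7275 genes in either direction; at an unadjusted p under 0.05 it was 7 of 8 members and 312 of 7275 genes. After scaling the count was also 0 of 8 (0.151% of genes). Higher values in every bleomycin mouse than in every saline mouse were found for 4 members as deposited (1.43% of tested genes) and 5 after scaling (1.31%). Of the deposited values, the count past the threshold was 5 without bleomycin mouse 8 (1.07% of genes then passed) and 7 without that mouse and saline mouse 3 (2.33%; a choice made after seeing the data). It was 8 with sample quality weights (7.53%) and 2 in 1 fit of all 16 mice (0.206%). The members were picked with this contrast known, so nothing is read from these counts. *Trem2* and *Gpnmb* each reached 1 FPKM in 1 saline mouse, so the bleomycin mice carried them past the filter. The scaled housekeeping sum overlapped between agents here (121 to 1511 with saline and 145 to 1530 after bleomycin).

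**Figure D2:**
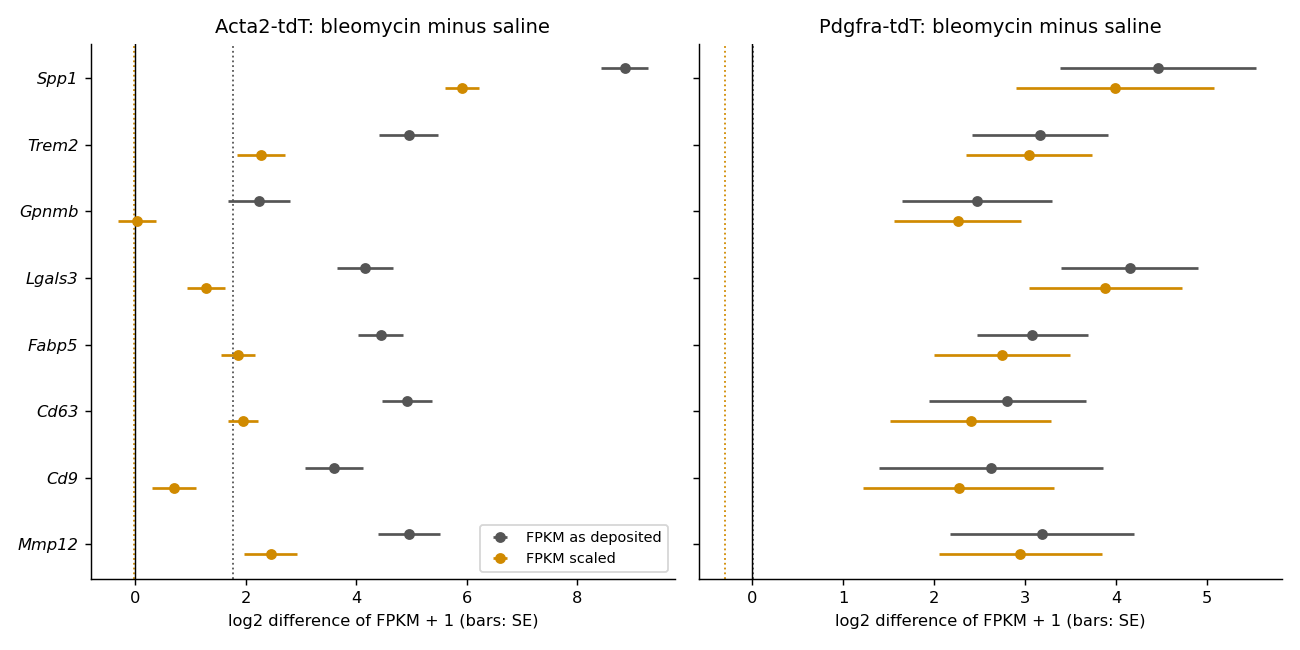
Log2 difference of FPKM + 1, bleomycin minus saline (points, with SE as bars), for the 8 members tested in each line, as deposited and scaled to an equal protein-coding sum; dotted lines are the median of all genes on the same scale. *Gpnmb* fell from 2.24 to 0.03 with scaling in *Acta2-tdT* cells, and in *Pdgfra-tdT* cells the bars are wider and the scales close.

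Between the lines after saline, 0 of 7 tested members passed the threshold (limma, either direction; 2.91% of 8153 genes did), and 2 of 7 members had an unadjusted p under 0.05, as did 1116 of 8153 genes. Without *Pdgfra-tdT* saline mouse 3 the count past the adjusted threshold was 3 (29.1% of genes then passed), and with sample quality weights it was also 3 (33.3% of genes). After scaling 0 of 7 passed (3.35% of genes did), again with 2 at an unadjusted p under 0.05 (1277 of 8153 genes). *Lgals3* and *Cd63* were higher in every *Acta2-tdT* saline mouse than in every *Pdgfra-tdT* saline mouse on both scales (6.56% of genes as deposited and 7.75% scaled were so). The *Spp1* levels overlapped, and the *Pdgfra-tdT* saline values reached 53.7 FPKM, above the 14.6 FPKM highest of *Acta2-tdT*. After bleomycin *Spp1*, *Trem2* and *Cd63* did not overlap between the lines as deposited, all higher in *Acta2-tdT*, where 56.8% of 11995 tested genes were also higher in every mouse. Scaled, *Spp1* overlapped (1016 to 1691 against 192 to 2442) and *Trem2* had a difference of -0.012 (SE 0.64). *Fabp5* was then lower in every *Acta2-tdT* mouse (6.87 to 16.1 against 25.3 to 54.3), where 14.7% of genes were. As deposited 3 of 8 members passed the threshold, all higher in *Acta2-tdT* (71.0% of genes did), and after scaling 2 of 8, both lower (17.7% of genes did). Of all genes, 79.6% passed as deposited in either direction. The first count was 6 without *Pdgfra-tdT* bleomycin mouse 5 (88.7% of genes then passed) and 2 without *Acta2-tdT* bleomycin mouse 7 (65.9%) or mouse 8 (65.0%). It was 7 with sample quality weights (91.9%) and 1 with no filter on low values (21.5% of a larger set of genes).

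The difference between the lines in the response to bleomycin was 4.40 (SE 1.22) for *Spp1* as deposited and 1.92 (SE 1.07) after scaling. Over all genes the median was 1.05 and -0.32. The other 7 members had -0.23 (*Gpnmb*) to 2.11 (*Cd63*) as deposited. After scaling all 7 were below 0, from -2.60 (*Lgals3*, SE 0.80) to -0.45 (*Cd63*, SE 0.77), with *Gpnmb* at -2.24 (SE 0.77). As deposited 1 of 8 members passed the threshold upwards (36.6% of 16605 genes did), and after scaling 0 of 8 did in either direction (2.40% of genes), with 2 of 8 (*Lgals3* and *Gpnmb*, both below 0) and 3317 of 16605 genes at an unadjusted p under 0.05, like shares from which nothing is read. The first count was 4 without *Pdgfra-tdT* bleomycin mouse 5, 5 with sample quality weights and 0 with quantile normalization, where 56.8%, 64.2% and 9.61% of genes passed in either direction, against 39.8% for the deposited values of all mice.

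Ratios within a mouse do not depend on the library total. *Spp1* over *Cd63* was 0.221 to 0.596 in *Acta2-tdT* saline mice and 4.44 to 6.73 in *Acta2-tdT* bleomycin mice. In *Pdgfra-tdT* mice the same ratio was 1.82 to 7.42 with saline and 7.22 to 21.02 after bleomycin, and the ranges overlapped. *Spp1* over *Trem2* was 2.70 to 11.2 in *Acta2-tdT* saline mice, 42.1 to 166 in *Acta2-tdT* bleomycin mice and 24.3 to 93.4 in *Pdgfra-tdT* bleomycin mice. Both genes reached 1 FPKM, the least for which a ratio is given, in 1 *Pdgfra-tdT* saline mouse, whose ratio of 35.7 lay inside the bleomycin range. The ratios of *Spp1* to *Lgals3* and *Cd9* were likewise higher in every *Acta2-tdT* bleomycin mouse than in the 4 *Acta2-tdT* saline mice, and those to *Gpnmb* and *Fabp5* than in the 3 saline mice that had a ratio. In *Pdgfra-tdT* mice the ratio to *Gpnmb* was 4.13 in the 1 saline mouse that had one and 28.7 to 173 in 3 bleomycin mice. The other ratios overlapped between agents there. For *Lgals3* they were 1.89 to 26.3 in 3 saline mice and 6.71 to 23.6 after bleomycin. For *Fabp5* they were 2.62 to 19.4 and 7.57 to 52.5, and for *Cd9* 0.553 to 29.9 and 5.71 to 32.6.

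Set against 15 summed pan-macrophage markers (including *Cd68*, *Csf1r*, *Lyz2* and *Tyrobp*), *Spp1* was 0.0277 to 0.0809 in *Acta2-tdT* saline mice and 0.828 to 3.001 in *Acta2-tdT* bleomycin mice. It was 0.173 to 0.911 in *Pdgfra-tdT* bleomycin mice and 0.0420 to 0.620 in *Pdgfra-tdT* saline mice, which overlapped. The make-up of this sum differed between groups. Of the 15 markers, 10 stayed under 1 FPKM in every *Pdgfra-tdT* saline mouse, against 2 in *Acta2-tdT* saline mice. *Spp1* over *Lyz2* alone was 0.0836 to 0.406 and 1.59 to 7.38 in *Acta2-tdT* saline and bleomycin mice. In *Pdgfra-tdT* mice it was 0.0662 to 1.05 and 0.214 to 1.35. These ratios are not a measure of *Spp1* per macrophage. *Lgals3* over the same sum was 0.0246 to 0.0307 in *Acta2-tdT* saline mice and 0.0274 to 0.0410 in *Acta2-tdT* bleomycin mice, which overlapped. *Trem2* (0.00315 to 0.0102 and 0.0181 to 0.0230) and *Fabp5* (0.00248 to 0.00751 in 3 saline mice and 0.00961 to 0.0132) were higher in every bleomycin mouse. *Gpnmb* (0.00331 to 0.00503 in 3 saline mice and 0.00102 to 0.00401) and *Cd9* (0.0268 to 0.0658 and 0.0200 to 0.0451) overlapped. *Mmp12* had a ratio in 1 saline mouse (0.00681), below its bleomycin range of 0.00977 to 0.0220. *Cd63* over the sum was 0.113 to 0.136 in *Acta2-tdT* saline mice and 0.162 to 0.446 in *Acta2-tdT* bleomycin mice. It was 0.0198 to 0.341 in *Pdgfra-tdT* saline mice and 0.0239 to 0.0433 in *Pdgfra-tdT* bleomycin mice. In bulk RNA, fewer cells of a type and less RNA per cell cannot be told apart.

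**Figure D3:**
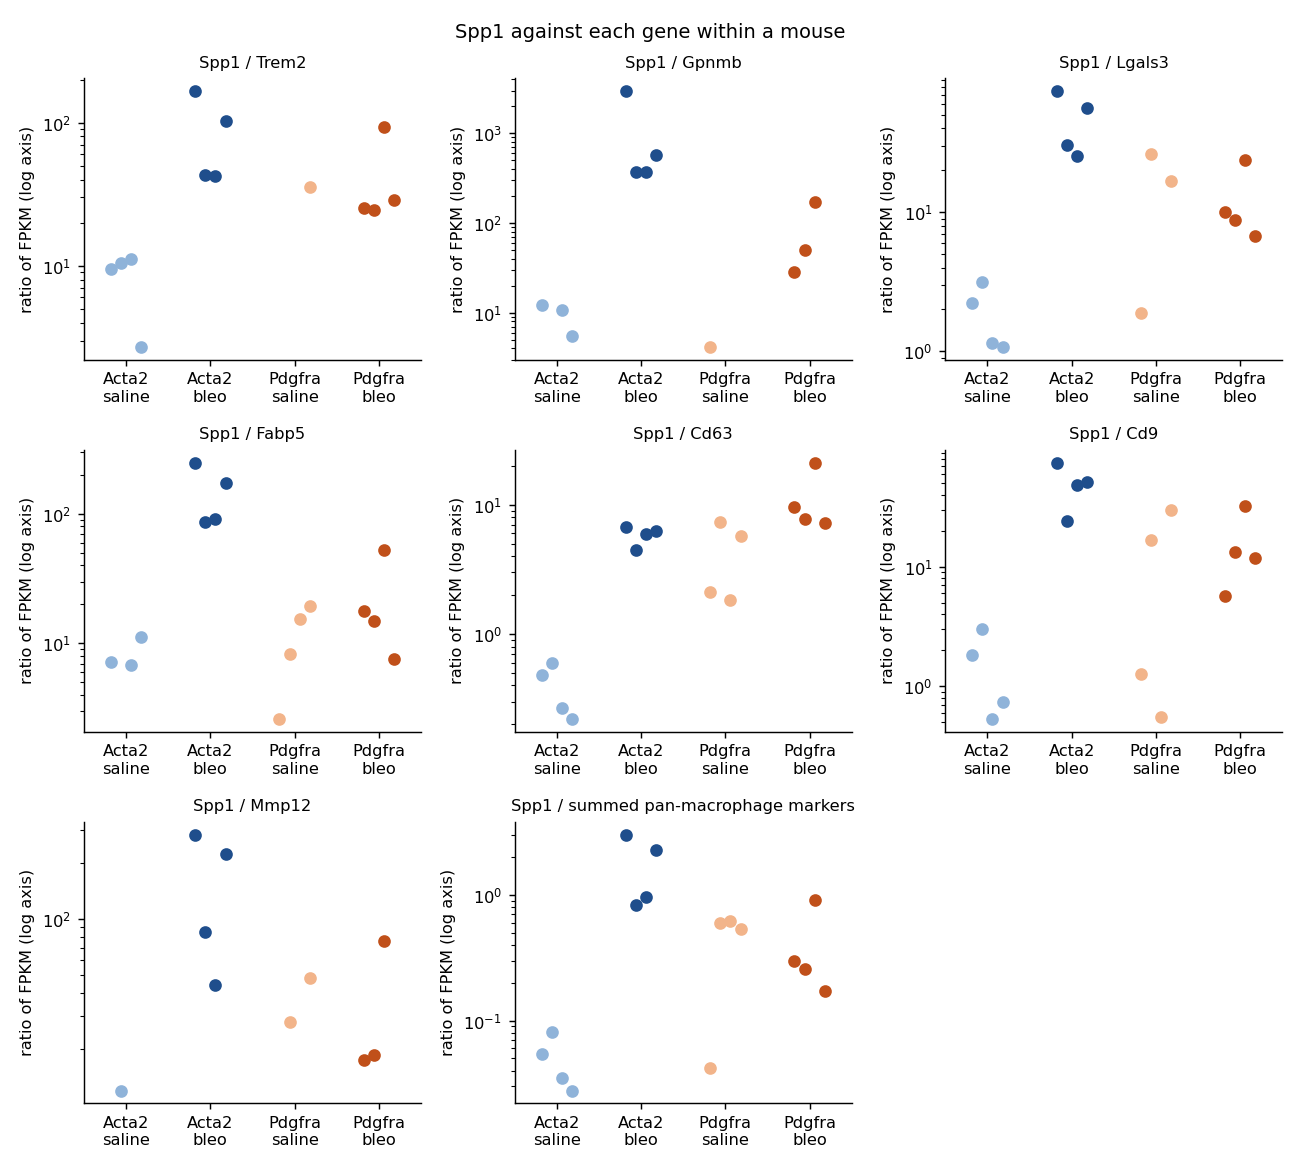
Ratio of *Spp1* FPKM to that of each other member and to 15 summed pan-macrophage markers within each mouse (log axis), in 4 groups; points are mice, and a ratio is drawn only where both values are at least 1 FPKM. *Spp1* over the marker sum lay between 0.828 and 3.001 in *Acta2-tdT* bleomycin mice and below 0.0810 in *Acta2-tdT* saline mice.

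**Figure D4:**
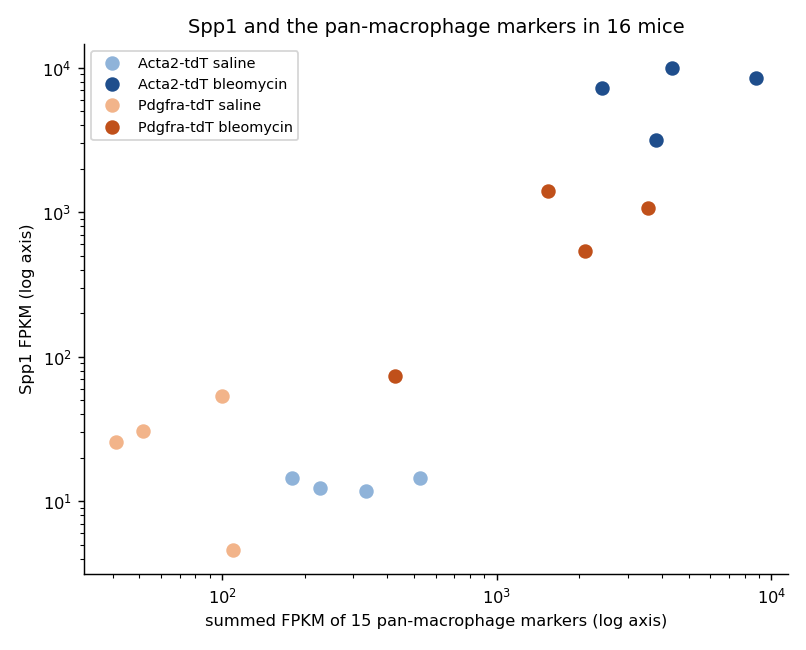
*Spp1* FPKM against summed FPKM of 15 pan-macrophage markers in 16 mice (log axes), as deposited; points are mice. Among bleomycin mice the 4 *Acta2-tdT* points sat above the 4 *Pdgfra-tdT* points, as was so for 56.8% of tested genes as deposited. The marker sums of the lines overlapped (2409 to 8830 against 425 to 3543). *Spp1* over the sum also overlapped (0.828 to 3.001 against 0.173 to 0.911), as did scaled *Spp1* (1016 to 1691 against 192 to 2442).

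The pan-macrophage markers themselves passed the threshold upwards in *Acta2-tdT* cells for 15 of 15 tested genes as deposited and 6 of 15 after scaling, where 70.4% and 23.9% of all genes did (limma; list median 2.82 and 0.35, against 1.76 and -0.02 over all genes). *Lyz2*, lysozyme, had a difference of 4.57 (SE 0.58) as deposited and 1.58 (SE 0.47; adjusted p = 0.017) after scaling. *Ctss*, a lysosomal protease, had 5.86 (SE 0.60) and 2.95 (SE 0.47; adjusted p = 0.00050). *Tyrobp*, the partner of TREM2, had 2.70 (SE 0.41) and -0.28 (SE 0.30; adjusted p = 0.449). In *Pdgfra-tdT* cells 0 of 6 tested markers passed (limma; 6 of 6 at an unadjusted p under 0.05, beside 0.124% and 312 of 7275 genes), and *Lyz2* had 4.69 (SE 0.70; adjusted p = 0.0967). Without bleomycin mouse 8, 5 of 5 tested markers passed there (1.07% of genes), and with sample quality weights 6 of 6 (7.53%). The sum of all 15 markers was 41.2 to 109 FPKM in *Pdgfra-tdT* saline mice and 425 to 3543 after bleomycin. Scaled, it was 51.2 to 272 and 1109 to 3138, so it did not overlap on either scale. In *Acta2-tdT* mice it was 180 to 526 FPKM with saline and 2409 to 8830 after bleomycin. Scaled, those sums were 377 to 678 and 563 to 1508, which overlapped.

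Of 20 lipid and lysosome genes of such macrophages, 20 passed upwards as deposited in *Acta2-tdT* cells and 15 after scaling (list median 4.57 and 1.71). Of all genes 70.4% passed upwards and 16.3% downwards as deposited, and 23.9% and 32.5% after scaling. *Ctsd*, cathepsin D, had 2.31 (SE 0.40) after scaling and *Lpl*, lipoprotein lipase, 2.64 (SE 0.31; adjusted p = 6.7e-05). TREM2 signalling genes were 9 of 9 upwards as deposited, but after scaling 0 of 9 passed upwards and 1 downwards (list median 2.47 and 0.17). *Apoe*, a lipid carrier and TREM2 ligand, had 1.29 (SE 0.54; adjusted p = 0.0678) after scaling. For osteopontin receptors the counts were 7 upwards and 1 downwards of 8 as deposited, and 4 upwards and 2 downwards after scaling (list median 2.78 and 0.62). *Itga5* had 3.06 (SE 0.25) and *Itgb1* 1.67 (SE 0.25) after scaling. Of the 4 other genes of the osteopontin protein family (*Dspp*, *Dmp1*, *Ibsp* and *Mepe*) none passed the filter.

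The relatives of the members were followed in the same contrast, in which 70.4% of all genes passed upwards and 16.3% downwards as deposited, and 23.9% and 32.5% after scaling. Of 10 tested tetraspanins besides *Cd63* and *Cd9*, 10 passed upwards as deposited and 7 after scaling (median 0.90), with *Tspan4* at 1.71 (SE 0.28) and *Cd81* at -0.0084 (SE 0.32) after scaling. Of 3 tested galectins 2 passed after scaling, *Lgals1* with 2.47 (SE 0.30) and *Lgals9* with 1.37 (SE 0.26). Neither tested fatty acid binding protein, *Fabp3* or *Fabp4*, passed after scaling. Among 10 matrix metalloproteinases and their inhibitors 6 passed upwards and 1 downwards after scaling (median 0.88), led by *Timp1*, an inhibitor, with 5.09 (SE 0.30), and *Mmp14* with 2.85 (SE 0.24). Alternative activation genes passed upwards for 5 of 8 after scaling (median 1.11), with *Chil3* at 1.94 (SE 0.64; adjusted p = 0.0273) and *Retnla* at 1.23 (SE 0.90; adjusted p = 0.271). Of 8 macrophage transcription factors 3 passed upwards and 1 downwards, and *Cebpb* had 1.54 (SE 0.23).

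Macrophage subset markers were compared between the lines after bleomycin. On the scaled values 5 of 8 tested alveolar macrophage markers were lower in *Acta2-tdT* cells (17.7% of genes were), and these were *Car4* (-2.11), *Marco* (-2.21), *Atp6v0d2* (-2.17), *Plet1* (-1.92) and *Ear1* (-1.48), named after their values were seen. As deposited 0 of 8 passed (limma; also 0 of 8 at an unadjusted p under 0.05), beside 79.6% of genes at the adjusted threshold and 9765 of 11995 unadjusted. The list median was -0.24 as deposited and -1.70 scaled, against 1.81 and 0.19 over all genes. Of 12 monocyte-derived and interstitial markers, 11 were higher in *Acta2-tdT* cells as deposited (71.0% of genes were) and 4 after scaling (15.6%), the latter including *C1qc* (2.53, SE 0.86; adjusted p = 0.0448) and *Pf4* (2.43, SE 0.76; adjusted p = 0.0334). Of the members, *Fabp5* and *Gpnmb* passed the threshold on that scale, with -1.76 (SE 0.52) and -1.82 (SE 0.64). *Lgals3* (-0.89), *Cd9* (-0.74), *Mmp12* (-0.65) and *Trem2* (-0.012) were below 0 without passing, and *Spp1* (1.05) and *Cd63* (1.86) above 0 without passing. With quantile normalization, the other way of making the mice alike, 4 of 8 members passed (34.9% of genes did). There *Spp1* (2.52, adjusted p = 0.0402) and *Cd63* (2.77, adjusted p = 0.0082) were higher in *Acta2-tdT* cells, and *Fabp5* (-1.59) and *Gpnmb* (-1.92) lower.

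Markers of other cells were summed on both scales. As deposited, summed neutrophil markers were 741 to 1478 FPKM in *Acta2-tdT* saline mice and 1142 to 5699 in *Acta2-tdT* bleomycin mice, against 21.4 to 46.2 and 8.63 to 147 in *Pdgfra-tdT* mice. Scaled, they were 1538 to 2266 in *Acta2-tdT* saline mice and 195 to 1333 in *Acta2-tdT* bleomycin mice, so they were lower in every bleomycin mouse on that scale. Smooth muscle markers summed to 325 to 751 FPKM in *Acta2-tdT* saline mice, 2040 to 5361 in *Acta2-tdT* bleomycin mice, 6.36 to 17.7 in *Pdgfra-tdT* saline mice and 1.83 to 36.6 in *Pdgfra-tdT* bleomycin mice. Scaled, the *Acta2-tdT* sums were 656 to 966 with saline and 559 to 861 after bleomycin, and overlapped. Fibroblast markers summed, scaled, to 45.6 to 56.5 in *Acta2-tdT* saline mice and 336 to 511 in *Acta2-tdT* bleomycin mice, without overlap, and to 18.6 to 72.8 and 6.28 to 86.4 in *Pdgfra-tdT* mice. The part of these cells in the values of the 8 genes was not tested.

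**Figure D5:**
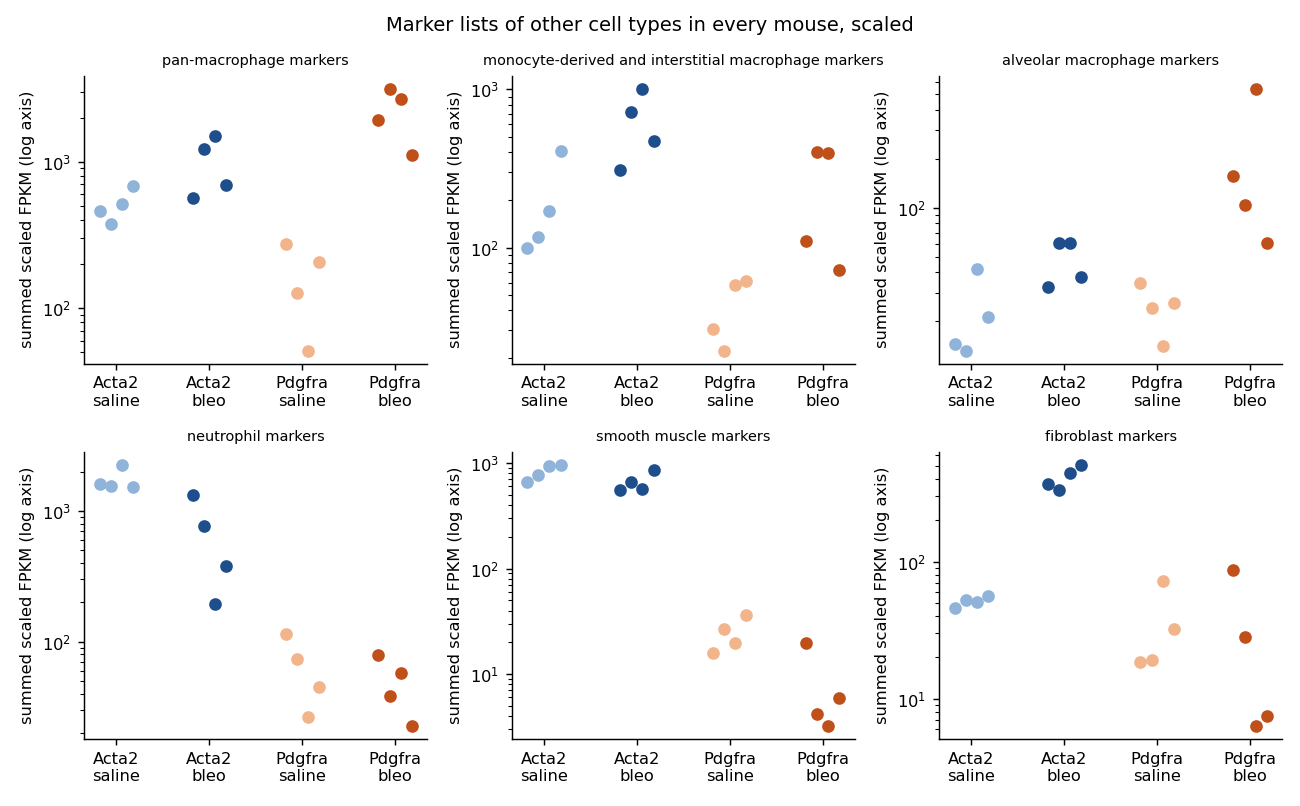
Summed scaled FPKM (log axis) of 6 marker lists in each of 16 mice, in 4 groups; points are mice. Pan-macrophage markers summed to 563 to 1508 in *Acta2-tdT* bleomycin mice and 1109 to 3138 in *Pdgfra-tdT* bleomycin mice, and neutrophil markers stayed between 22.5 and 115 in *Pdgfra-tdT* mice.

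Over the 16 mice the scaled genes most like *Spp1* (Pearson r of log2 values, 16604 genes) were *Lpl* (0.923), *Chaf1b* (0.918), *Pld3* (0.912), *Sae1* (0.905) and *Cenpt* (0.886). *Trem2* had r = 0.849 (rank 21), *Mmp12* 0.838 (rank 27), *Fabp5* 0.759 (rank 137) and *Gpnmb* 0.432 (rank 2520). The mice fall into groups, whose differences enter these values. For deviations from the group means *Lpl* had 0.572, *Chaf1b* 0.646, *Pld3* 0.503, *Sae1* 0.330 and *Cenpt* 0.656. Of the members, *Cd63* then had 0.756 (rank 13, against 0.710 over the 16 mice), *Mmp12* 0.557, *Fabp5* 0.430, *Trem2* 0.379, *Lgals3* 0.350, *Gpnmb* 0.242 and *Cd9* -0.04. As deposited *Ctsk* (0.971) and *Lpl* (0.967) came first. These are descriptions of points that share library and depth.

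Related loci carried little signal. *Cd63-ps* stayed at or below 3.34 FPKM, *Cd9-ps* at or below 0.271 and *Fabp5l2* at or below 1.06, against 1579, 196 and 94.2 for the highest *Cd63*, *Cd9* and *Fabp5* values.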

How the data were processed

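RNA was sequenced (SmartSeq2) from sorted tdTomato-positive left-lung cells of 16 mice. Per the labels and the study's methods, the authors aligned reads with TopHat2 2.1.1 and Bowtie2 to mm10 and estimated transcript abundance with Cufflinks 2.1.1. The deposited unit is FPKM (fragments mapped to a transcript, normalised to its length and to the library), 1 table a mouse, with confidence bounds and no counts. FPKM of rows with the same gene identifier were summed (49534 rows, 49452 genes), and 15 genes without an OK status were left out of the fits. Each member has 1 row. Of the set, 1 further gene is not reported here.

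Groups were compared with limma 3.58.1 (R 4.3.3) with a mean-dependent variance trend on log2(FPKM + 1), for genes at FPKM 1 or more in at least 4 of the mice compared, with Benjamini-Hochberg adjustment at 0.05. Every such difference is on the log2(FPKM + 1) scale, which understates changes of low genes. FPKM was also scaled so that the 21950 nuclear protein-coding genes summed to 74406 in each mouse. The fits were tested on simulated data.

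The members and lists were chosen with earlier results of these data known. Named list genes were the 2 of highest mean FPKM and the 2 of largest difference in a list. Exceptions were the alveolar macrophage markers, named after their values were seen, and the list genes flagged for a closer look. Of genes resembling *Spp1*, the 5 with the highest correlation that have a symbol and are no predicted gene were named. Depth is not stored in the files. Fragment numbers were inferred from the FPKM bounds and are approximate, also for low genes, where they were not whole (5.43 for *Trem2* in *Pdgfra-tdT* saline mouse 3). For high genes they levelled off. *Spp1* had 0.0406 FPKM per inferred fragment in *Acta2-tdT* saline mouse 1 and 2.66 in *Acta2-tdT* bleomycin mouse 5. *Gpnmb*, a low gene, had 0.0157 and 0.0208 in the same mice. The labels give the mice as separate samples of a group. No 2 mice held identical values.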

Additional observations from a re-analysis of the deposited data

Results flagged for a closer look

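In groups of 4, a value was picked out when its distance to the nearest other mouse passed Dixon's 95% limit, which chance gives in about 1 of 20 groups; 32 groups were checked and 4 values stood out. These were *Trem2* (5.39 FPKM) and *Gpnmb* (2.65 FPKM) in *Acta2-tdT* saline mouse 4, *Cd9* (46.2 FPKM) in *Pdgfra-tdT* saline mouse 3 and *Mmp12* (194 FPKM) in *Acta2-tdT* bleomycin mouse 7.

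Of 156 list genes tested for a difference between the lines in the response to bleomycin, 8 passed the limma threshold on both scales (of all genes, 39.8% passed as deposited and 2.40% scaled), all with a larger response in *Acta2-tdT* cells. As deposited the differences were 7.62 for *Col1a1*, 7.11 for *Col1a2*, 5.91 for *Col3a1*, 5.18 for *Des*, 4.69 for *Itga5*, 4.03 for *Krt8*, 2.53 for *Mmp10* and 7.81 for *Timp1*. After scaling they were 5.40, 4.87, 3.64, 2.76, 2.48, 1.999, 1.05 and 5.50 in the same order.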

How the results depend on the processing

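No paired analysis was possible because saline and bleomycin mice of a line share no replicate number. Between lines, same-numbered mice correlated from -0.25 to 0.13, so the numbers do not pair them. With the number as a replicate block, pan-macrophage calls were 0 of 8 (3 without the block; lines, saline) and 5 of 15 (8 without; difference in response). Of all genes 0.442% and 31.6% then passed, against 2.91% and 39.8% without the block. Between the lines after bleomycin the block gave 2 of 8 members and 11 of 15 markers, against 3 and 13 (78.2% of genes, against 79.6%). In *Pdgfra-tdT* cells the members called, 0 of 8, became 8 with sample quality weights, 2 in 1 fit of all 16 mice and 7 with saline mouse 3 and bleomycin mouse 8 both left out, an alternative chosen after seeing the data. Pan-macrophage calls there were 6 of 6, 2 of 6 and 5 of 5 tested under these, and 1 of 6 at a mean FPKM of at least 5. Of all genes 7.53%, 0.206%, 2.33% and 0.195% passed in the same order, against 0.124%, and nothing is read from the member counts. In *Acta2-tdT* cells scaling left 6 of 15 pan-macrophage calls. Between the lines after saline, weights gave 3 members and 5 of 8 markers, and no filter gave 0 of 15 markers, against 0 members and 3 of 8 markers. Of all genes 33.3% and 0.135% then passed, against 2.91%. After bleomycin, members called were 1 with no filter and 7 with weights, against 3, and pan-macrophage calls were 2 scaled and 1 with quantile normalization, against 13 of 15 (33.3% and 34.9% of genes passed, against 79.6%). For the difference in response, members called were 0 scaled, 0 with quantile normalization and 5 with weights, against 1. Pan-macrophage calls were 2 with pseudocount 0.1, 2 of only 9 tested at mean FPKM of at least 5, 0 scaled, 1 with quantile normalization and 5 with both mice left out, against 8 of 15. Of all genes 20.9%, 28.8%, 2.40%, 9.61% and 30.0% then passed, against 39.8%. *Trem2* between lines after bleomycin went from 2.55 (SE 0.92) as deposited to -0.012 (SE 0.64) when scaled, a value near 0. Leaving out 1 mouse gave 8 of 8 members and 13 of 13 to 15 of 15 tested markers in *Acta2-tdT* cells (79.1% to 88.1% of genes passed). In *Pdgfra-tdT* cells it gave 0 to 5 members and 0 to 5 markers (0% to 1.07% of genes). The highest there were 5 of 8 and 5 of 5 tested, without bleomycin mouse 8. Between the lines after saline it gave 0 to 3 members and 0 to 5 markers (0.200% to 29.1% of genes). The highest were without *Pdgfra-tdT* saline mouse 3. After bleomycin it gave 2 to 6 members and 10 of 14 to 14 of 15 markers (65.0% to 88.7%). For the difference in response it gave 1 to 4 members and 4 of 14 to 8 of 15 markers (25.1% to 56.8%). In both, the most members came without *Pdgfra-tdT* bleomycin mouse 5. Genes called higher and lower were 8811 and 2037 as deposited but 2988 and 4066 scaled (*Acta2-tdT*), 8520 and 1033 but 1874 and 2124 (lines, bleomycin), and 6074 and 531 but 206 and 193 (difference in response). The cause was not tested.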
